A study of Homo sapiens with 4 samples.

Results

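The genes described here are 34 transcriptional targets of p53 that lie outside the families of apoptosis regulators. They were taken from a list of names, and 31 of the 34 were measured, each by 1 probe set, among the 17687 genes named on the arrays. *BTG2*, *FDXR* and *CES2* had no probe set named in the annotation used here and were not analysed. RNA came from 2 established human prostate cancer lines, PC-3, grown in F-12 medium and lacking p53, and 22Rv1, grown in RPMI medium and expressing p53. Both lines had been stably selected with puromycin after lentiviral delivery of a short hairpin RNA of 1 target sequence in *TNFRSF13B* (shTNFRSF13B, labelled shCD267) or of the empty pLKO.1 vector (labelled Ctrl), which carries no control hairpin. Each of the 4 conditions was read on 1 array from total RNA. With 1 array per condition there are no replicates within a line and nothing was tested, so that every difference below is a difference between single arrays.

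p53 is a transcription factor that accumulates after DNA damage and other stress and binds paired copies of a decamer sequence near its target genes. Its targets halt the cell cycle, repair DNA, adjust metabolism and autophagy, promote death, and, through MDM2, bring p53 itself down again. Many of these genes are also induced by other stress factors, so that a cell without p53 can still express them. PC-3 cells are widely used as a p53-null prostate model.

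The p53 element could be seen in the promoters of several of the genes. In RefSeq promoters of GRCh38.p14, from 250 bases before to 50 after each start site, the paired decamer consensus of p53 with no spacer, the core C and G of each decamer kept and at most 3 of 20 bases mismatched was found for 8 of the 30 genes that had a promoter entry, among them *FDXR* and *CES2*. It was present in 20.9% of the 43 promoter entries of these genes and in 1.12% of all 35116 promoters. The limit of 3 mismatches was set with the matches in view, and a match is a description of sequence, not evidence of binding. The sites of the 6 measured genes are shown because these are the members with a visible p53 element. Each is given 5′ to 3′ on the strand of the gene in a window of at most 30 bases, and capitals mark bases of the element that match the consensus.
MDM2, chr12:68808918-68808947, + strand: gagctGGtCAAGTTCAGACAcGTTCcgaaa
DDB2, chr11:47214964-47214993, + strand: gctccAAGCTgGTTTGAACAAGCCCtgggc
AEN, chr15:88621301-88621330, + strand: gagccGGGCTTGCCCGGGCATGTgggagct
SESN1, chr6:109009013-109009042, - strand: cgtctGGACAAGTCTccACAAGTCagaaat
RPS27L, chr15:63157522-63157551, - strand: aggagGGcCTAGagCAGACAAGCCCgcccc
GDF15, chr19:18386181-18386207, + strand: tgcacAGcCATGCCCGGGCAAGaaCtc

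The *DDB2* element differed from the consensus at 1 base, those of *MDM2* and *AEN* at 2, and those of *SESN1*, *RPS27L* and *GDF15* at 3. The *GDF15* element began 29 bases into the transcript, whereas the *MDM2* element lay inside the gene, with its first base 94 bases before an internal start site. A single exact decamer, which both strands share, was found for 6 of the 30 genes, in 14.0% of their promoters and 6.63% of all promoters. The cAMP response element TGACGTCA, which reads the same on both strands, was found only for *PPM1D* (2.33% of the genes' promoters and 1.85% of all), and the AP-1 element TGANTCA, also its own reverse complement, for *EDA2R*, *MDM2*, *PERP* and *SFN* (14.0% and 7.71%).

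The array of 22Rv1 cells with the empty vector stood apart from the other 3, with a median of 5.33 over all probe sets where those had 6.93 to 7.01. Over all genes, the median log2 ratio of shTNFRSF13B to empty vector was 1.22 in 22Rv1 cells as deposited and -0.06 once the arrays were quantile normalized to a common distribution, and in PC-3 cells it was -0.0019 and 0.01. Differences that involve the 22Rv1 empty vector array are therefore given on both scales, and levels are deposited log2 values unless stated. The targeted gene *TNFRSF13B* had deposited ratios of -0.40 in the PC-3 pair and -0.45 in the 22Rv1 pair, both under 2-fold. On the quantile scale its ratios were -0.43 and -2.20. The study reported its protein as lowered in both lines, by western blot. Of 4 genes that mark PC-3 cells, *ITGA3*, *VIM* and *CAV1* lay between 13.22 and 15.47 on the PC-3 arrays and between 4.79 and 6.50 on the 22Rv1 arrays, and *CD44* between 12.25 and 12.83 and between 8.66 and 10.07. Of 4 measured luminal genes, only *STEAP2* was higher on both 22Rv1 arrays as deposited. Over all 4 arrays *KLK3* lay between 6.38 and 7.54, *KLK2* between 4.79 and 7.35 and *TMPRSS2* between 5.87 and 7.17. As deposited, levels of *KLK3*, *KLK2* and *TMPRSS2* overlapped between the lines. On the quantile scale the log2 ratio of PC-3 to 22Rv1, empty vector first, was -1.13 and -0.66 for *KLK3* and -0.52 and -1.72 for *KLK2*. That of *TMPRSS2* was -1.93 and 0.63, and that of *CD44* 0.43 and 4.25. The 95th percentile of 349 olfactory receptor genes, used as a reference for dim probes, was 4.92 and 4.98 on the PC-3 arrays and 3.91 and 5.30 on the 22Rv1 arrays, empty vector first. With shTNFRSF13B the level of *TNFRSF13B* was under this limit in PC-3 cells, at 4.85, and near it in 22Rv1 cells, at 5.63, so that its ratios are against background.

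The p53 targets were mostly well above this level. Their median stood at 8.84 (PC-3 empty vector), 8.81 (PC-3 shTNFRSF13B), 8.31 (22Rv1 empty vector) and 8.51 (22Rv1 shTNFRSF13B). By rank among all genes on an array, which quantile normalization does not change, the median of the members was at percentile 64.7, 64.4, 75.0 and 62.7 in the same order, so that the 22Rv1 empty vector array ranked these genes highest. *CASP1* and *PIDD1* were below the olfactory receptor percentile on all 4 arrays, *SPATA18* on all but the 22Rv1 empty vector array, *EDA2R* on both PC-3 arrays and *PLK3* on the 22Rv1 shTNFRSF13B array. Ratios of these genes on those arrays are against background.

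**Figure D1:**
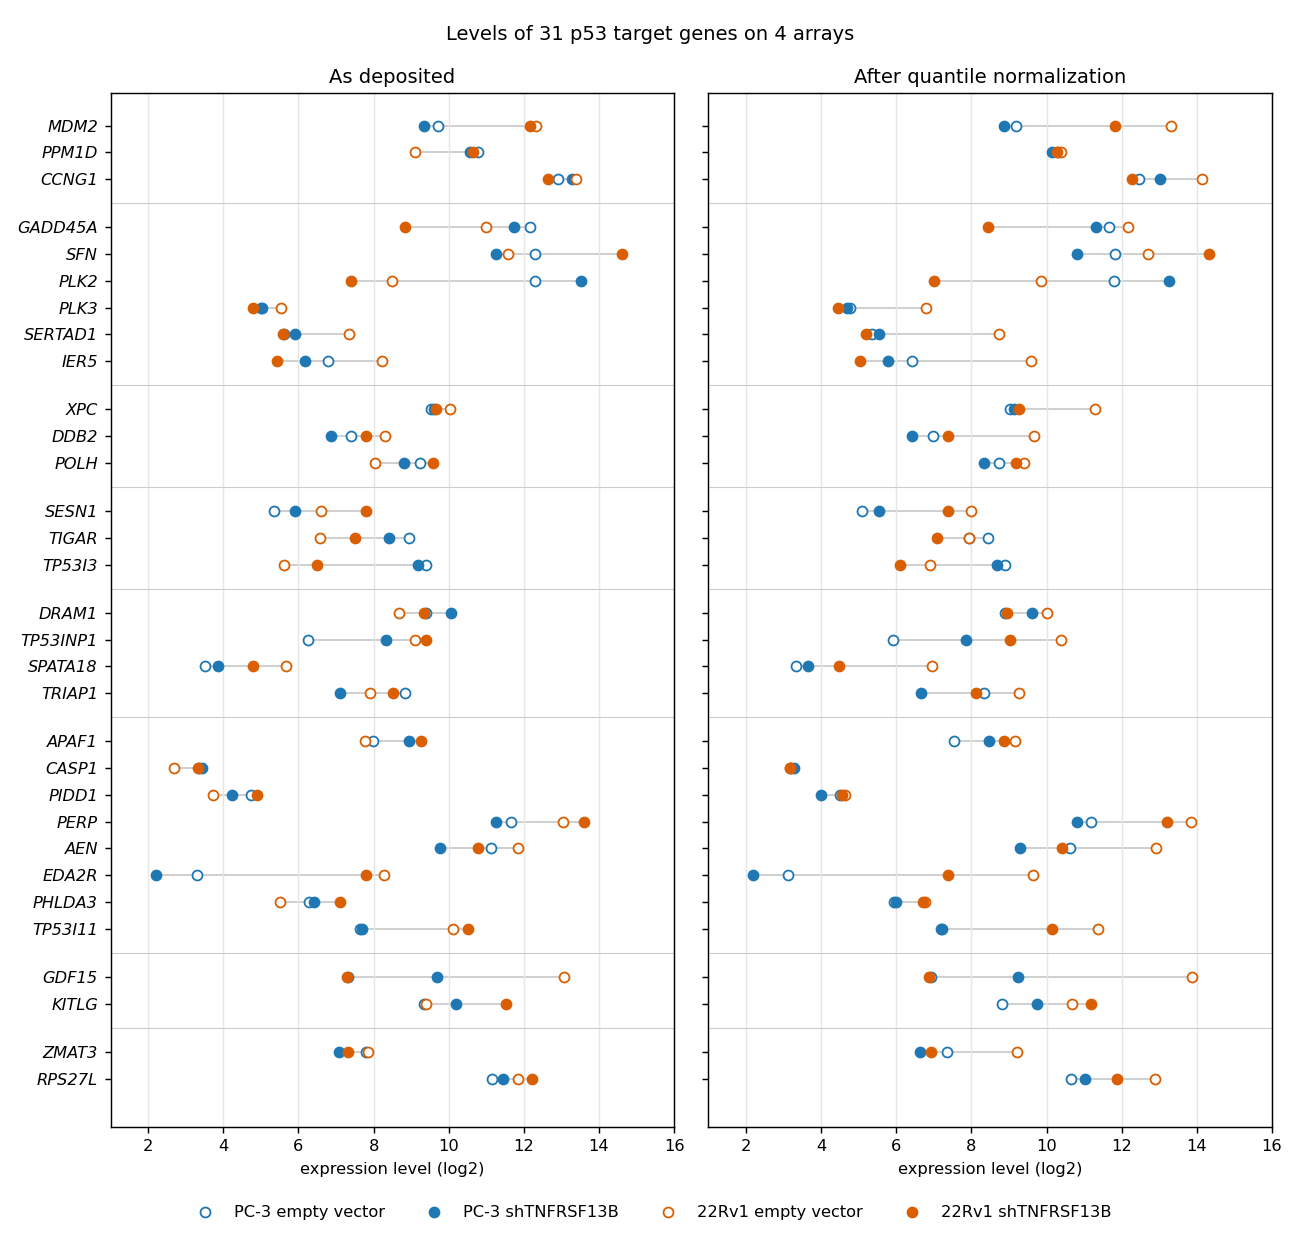
Expression level (log2) of the 31 measured p53 target genes on the 4 arrays, as deposited (left) and after quantile normalization (right), with 1 point per array and genes grouped by role. After quantile normalization the open orange points of 22Rv1 cells with the empty vector are the highest of the 4 for many genes, whereas *PLK2*, *TP53I3* and *TIGAR* are highest in PC-3 cells.

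In 22Rv1 cells, 6 of the 31 targets were at least 2-fold lower with shTNFRSF13B on both scales, and *SFN* alone was at least 2-fold higher on both. The 6 were *GDF15*, *IER5*, *GADD45A*, *SERTAD1*, *PLK2* and *AEN*. The share of all genes past 2-fold on both scales was not counted, here or in the other comparisons. It is at most the smaller of the shares given for each scale. As deposited, 6 targets were lower and 8 higher (19.4% and 25.8%), where 2.01% of all genes were lower and 58.3% higher. After quantile normalization 19 were lower and 1 higher (61.3% and 3.23%), where 15.5% and 13.3% of all genes were. The median log2 ratio of the targets was 0.37 as deposited, beside 1.22 for all genes, and -1.22 after quantile normalization, beside -0.06 for all genes. Of the 31 targets, 25 lay below the median ratio of all genes as deposited and 27 after quantile normalization. The number of targets called lower thus depended on the scale, whereas most lay below the median gene on both. A loess fit of the ratio on level, which removes a dependence of the ratio on level, left 18 lower and 1 higher, with a median of -1.18.

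*GDF15* had the largest difference in 22Rv1 cells. This gene encodes a secreted stress cytokine of the TGF-beta superfamily. Its level was 13.06 with the empty vector and 7.28 with shTNFRSF13B, and its percentile on the array was 97.6 and 53.2. The log2 ratio was -5.78 as deposited and -7.00 quantile normalized, a 55.0-fold and a 128-fold difference. Its levels in PC-3 cells, 7.33 and 9.68, lay near or above the lower of the 22Rv1 values. *KITLG*, the ligand of the receptor KIT, went the other way in 22Rv1 cells, from 9.39 to 11.53, with a deposited log2 ratio of 2.14 and a quantile-normalized one of 0.52. Its percentile, 82.9 with the empty vector and 86.9 with shTNFRSF13B, moved little.

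The growth arrest and early response group, with 6 measured genes, held 4 of the 6 targets lower on both scales. Of all genes, at most 2.01% were lower on both scales. *GADD45A*, a stress protein that binds p21 and PCNA, stood at 10.98 with the empty vector and 8.83 with shTNFRSF13B in 22Rv1 cells (log2 ratio -2.15 as deposited and -3.73 after quantile normalization). *IER5*, an immediate early gene that acts on the heat shock factor HSF1, stood at 8.23 and 5.42 (-2.81 and -4.55). *SERTAD1*, a CDK4-binding regulator of transcription, stood at 7.34 and 5.58 (-1.76 and -3.53). The shTNFRSF13B values of *IER5* and *SERTAD1* were close to the olfactory receptor percentile of that array, 5.30, so that the sizes of these ratios are against values near background.

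The polo-like kinases PLK2 and PLK3 respond to stress, and PLK2 also acts in centriole duplication. *PLK2* stood at 8.50 with the empty vector and 7.41 with shTNFRSF13B in 22Rv1 cells, with a deposited log2 ratio of -1.09 and a quantile-normalized one of -2.85. *PLK3* stood at 5.53 and, dim, at 4.78 (-0.75 and -2.35). *SFN*, the stratifin that keeps the mitotic kinase complex in the cytoplasm, was at 11.58 with the empty vector and 14.62 with shTNFRSF13B. Its log2 ratio was 3.04 as deposited and 1.63 after quantile normalization, and it ranked at percentile 94.2 and 98.4. This early response and arrest group therefore held the largest member ratio upwards as well as 4 of the 6 downwards.

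Genes of the p53 feedback loop depended on the scale. *MDM2*, the ubiquitin ligase that targets p53 for degradation, was bright on both 22Rv1 arrays, at 12.33 with the empty vector and 12.17 with shTNFRSF13B. Its log2 ratio was -0.16 as deposited and -1.47 after quantile normalization, and its percentile 96.3 and 90.7. *CCNG1*, cyclin G1, which recruits a phosphatase to MDM2, stood at 13.39 and 12.63 (-0.76 and -1.86). *PPM1D*, the WIP1 phosphatase that opposes p53 signalling, stood at 9.11 and 10.64 (1.53 and -0.12), with percentiles of 80.9 and 80.4. Of the 3, none was past 2-fold on both scales. In western blots of the study, p53 protein was higher with shTNFRSF13B in 22Rv1 cells and was not seen in PC-3 cells. A link of this protein with the target values was not tested.

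The DNA repair targets were not past 2-fold on both scales either. *XPC* and *DDB2*, which recognise damaged bases in nucleotide excision repair, had ratios of -0.37 and -0.53 as deposited and -2.03 and -2.30 after quantile normalization. Their levels went from 10.03 to 9.65 and from 8.31 to 7.79. *POLH*, the polymerase that copies past ultraviolet lesions, went from 8.03 to 9.58, with 1.55 and -0.22. Among the metabolic targets, *SESN1*, a sestrin that restrains mTORC1, went from 6.61 to 7.79 (1.18 and -0.62). *TIGAR*, which lowers glycolytic flux, and the oxidoreductase *TP53I3* had 0.93 and 0.88 as deposited and -0.85 and -0.79 after quantile normalization.

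All 4 autophagy and mitochondrial targets were under 2-fold as deposited and at least 2-fold lower after quantile normalization in 22Rv1 cells. On the quantile scale 19 of all 31 targets and 15.5% of all genes were lower. *DRAM1*, a lysosomal protein of autophagy, went from 8.69 to 9.35 (0.66 and -1.05), and *TP53INP1*, a stress-induced autophagy protein, from 9.09 to 9.40 (0.31 and -1.37). *SPATA18*, which acts in mitochondrial quality control, went from 5.66 to 4.79 (-0.86 and -2.49), and *TRIAP1*, which helps carry lipids into mitochondria, from 7.90 to 8.51 (0.61 and -1.15). The RNA-binding protein gene *ZMAT3* (7.84 and 7.33) had -0.52 and -2.30. *RPS27L*, a close relative of the ribosomal protein gene *RPS27*, had 0.37 and -1.03, and the share of its signal that comes from *RPS27* was not tested.

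Among the 8 death-linked targets, only *AEN*, an exonuclease that takes part in cell death, was past 2-fold on both scales in 22Rv1 cells. It stood at 11.85 with the empty vector and 10.77 with shTNFRSF13B (-1.08 as deposited and -2.50 after quantile normalization). The apoptosome scaffold *APAF1* and the AKT inhibitor *PHLDA3* had 1.48 and 1.60 as deposited and -0.29 and -0.06 after quantile normalization. *PERP*, a desmosomal membrane protein, was bright, at 13.03 and 13.61 (0.58 and -0.64). *EDA2R*, a receptor of the tumour necrosis factor superfamily, had -0.49 and -2.26, and *TP53I11* 0.40 and -1.22. The scaffold *PIDD1* (1.18 and -0.06) and the inflammatory protease *CASP1* (0.65 and 0.01) were dim on both 22Rv1 arrays.

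**Figure D2:**
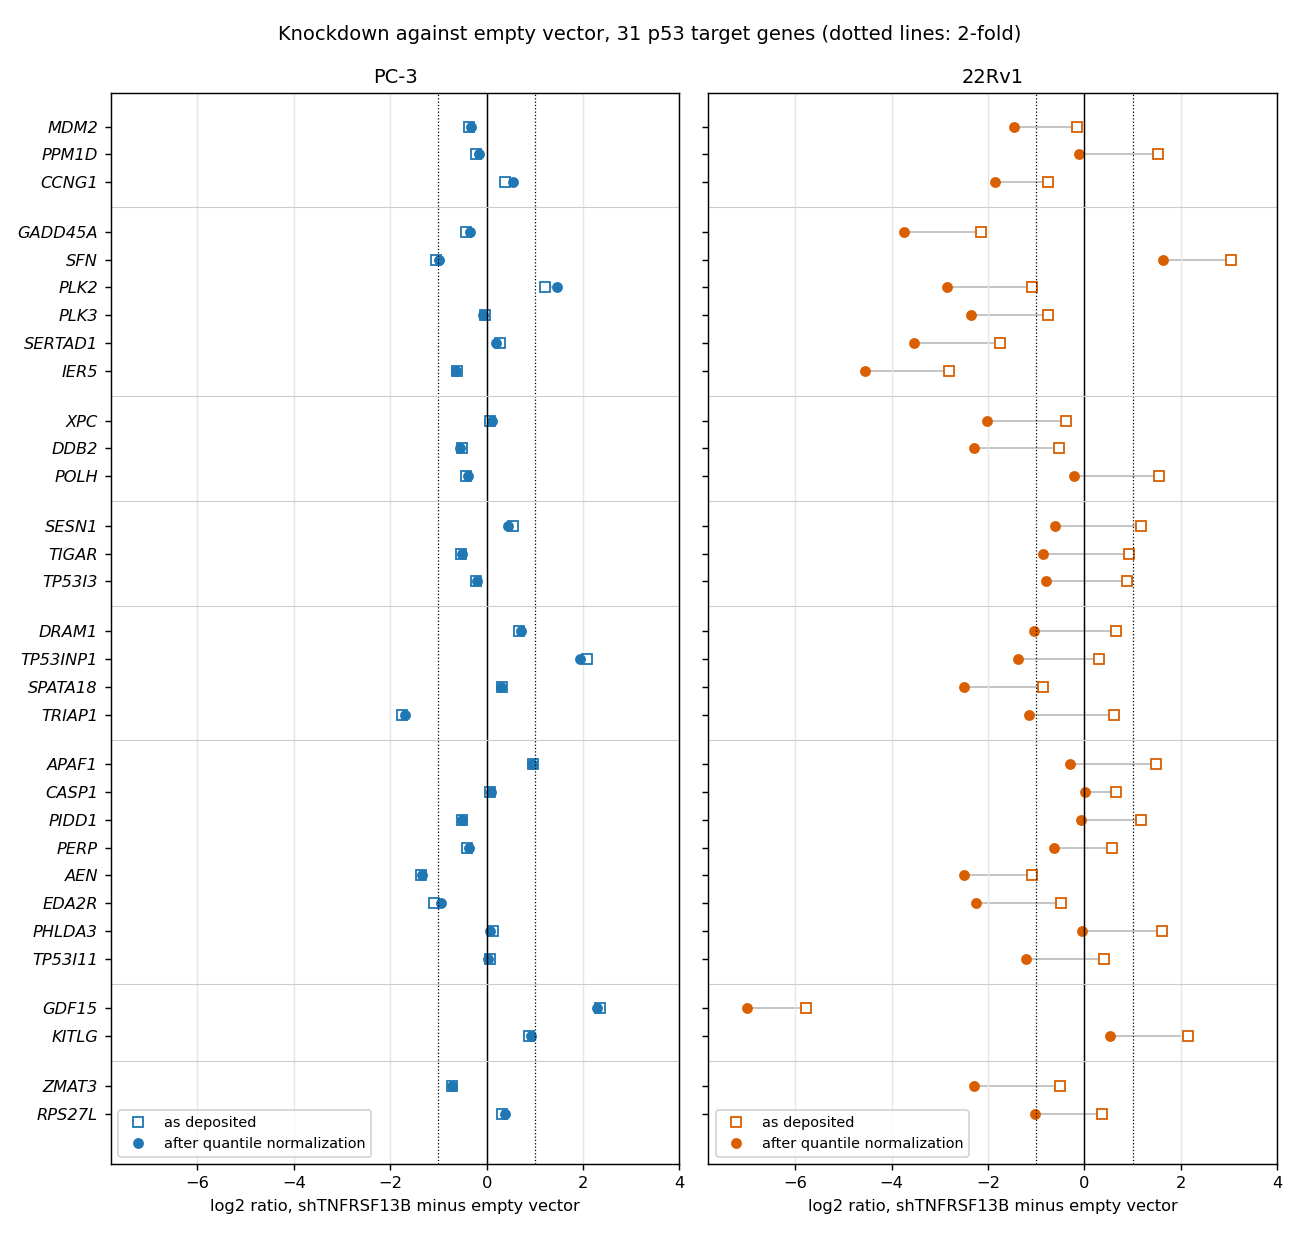
Log2 ratio of shTNFRSF13B to empty vector for the 31 measured p53 target genes in PC-3 (left) and 22Rv1 cells (right), as deposited (open squares) and after quantile normalization (filled circles), with dotted lines at 2-fold. In PC-3 cells both scales nearly coincide, whereas in 22Rv1 cells quantile normalization moves every gene to the left, and *GDF15* lies lowest on either scale.

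In PC-3 cells, which lack p53, the targets as a group had a median close to that of all genes. *GDF15*, *TP53INP1* and *PLK2* were at least 2-fold higher with shTNFRSF13B on both scales, and *TRIAP1* and *AEN* at least 2-fold lower. As deposited, 3 of 31 were higher and 4 lower (9.68% and 12.9%), where 5.76% and 4.69% of all genes were. After quantile normalization 3 were higher and 2 lower (9.68% and 6.45%), where 5.87% and 4.25% of all genes were. The median log2 ratio of the targets was -0.03 as deposited and -0.07 after quantile normalization, beside -0.0019 and 0.01 for all genes.

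*GDF15* stood at 7.33 with the empty vector and 9.68 with shTNFRSF13B in PC-3 cells, a log2 ratio of 2.35 or a 5.09-fold difference. *TP53INP1* stood at 6.24 and 8.33, a log2 ratio of 2.09. *PLK2* was already bright, at 12.30 with the empty vector, and reached 13.51, a log2 ratio of 1.21. These 3 genes share no role group, and after quantile normalization each was at least 2-fold lower in 22Rv1 cells.

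*TRIAP1* was at 8.84 with the empty vector and 7.09 with shTNFRSF13B in PC-3 cells (log2 ratio -1.75), and *AEN* at 11.13 and 9.76 (-1.37). *SFN*, at 12.30 and 11.25, had a log2 ratio of -1.05 as deposited and fell just short of 2-fold after quantile normalization. *EDA2R* (3.29 and 2.20) passed 2-fold only as deposited and was dim on both arrays. Of those under 2-fold, *APAF1* (0.95), *KITLG* (0.87) and *DRAM1* (0.67) had the largest positive ratios, and *ZMAT3* (-0.71), *IER5* (-0.61) and *TIGAR* (-0.54) the largest negative ones. *MDM2* (9.70 and 9.35) and *GADD45A* (12.15 and 11.73) had ratios of -0.36 and -0.42.

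Other gene groups moved with the PC-3 pair. Of 13 measured interferon-stimulated genes, all were at least 2-fold higher with shTNFRSF13B as deposited (median log2 ratio 6.97), where 5.76% of all genes were. Of 14 targets of the stress factor ATF4, which also induces several p53 targets, 9 were lower and none higher (median -1.91). Of all genes, 4.69% were lower and 5.76% higher. Among the 9 were *SESN2*, a sestrin paralogue of *SESN1* (9.20 and 7.05, -2.14), and the growth regulator *DDIT4* (-3.04). In 22Rv1 cells as deposited 6 of the 14 were lower and 3 higher, where 2.01% and 58.3% of all genes were. These became 10 and 1 on the quantile scale, where 15.5% and 13.3% of all genes were. Both groups were chosen with earlier results of these data known, so their counts are a description. The part of these groups in the values of the p53 targets was not tested.

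The 2 lines can be set side by side, since their knockdown ratios share no array. On both scales *PLK2* and *GDF15* passed 2-fold upwards in PC-3 cells and downwards in 22Rv1 cells, and *AEN* passed it downwards in both lines. *SFN* as deposited ran the other way from *GDF15*, lower with shTNFRSF13B in the PC-3 pair and higher in the 22Rv1 pair. No target was at least 2-fold higher in both lines on either scale. As deposited 14 of the 31 were under 2-fold in both lines, and after quantile normalization 11 were. The shares of all genes in these joint groups were not counted. The share higher in both lines is at most that in PC-3 cells, 5.76% as deposited and 5.87% after quantile normalization. Across the 31 genes Pearson's r between the ratios of the lines was -0.27 as deposited and -0.26 quantile normalized, and Spearman's rho was -0.02 and -0.01. Over all genes r was -0.13 on both scales and rho -0.11 and -0.12, and genes of the same 4 arrays are not independent replicates. The difference between the lines was not tested, as each has 1 array per condition.

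**Figure D3:**
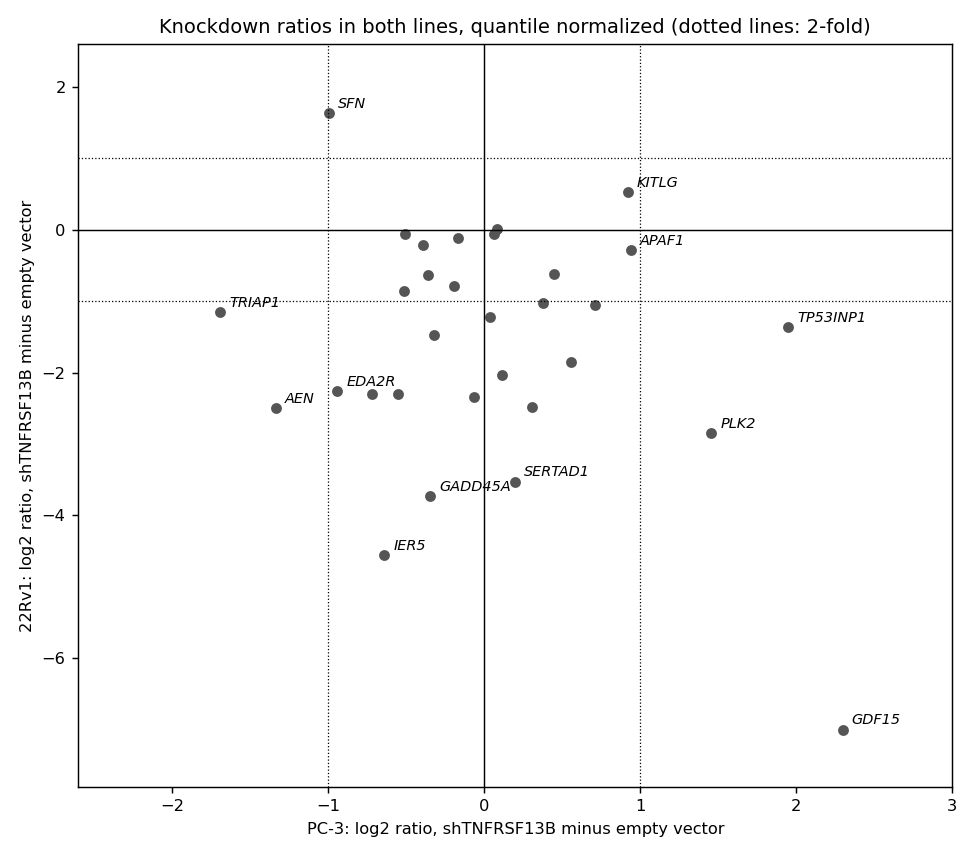
Log2 ratio of shTNFRSF13B to empty vector in PC-3 cells (horizontal axis) against 22Rv1 cells (vertical axis) for the 31 p53 target genes after quantile normalization, with dotted lines at 2-fold and 1 point per gene. *GDF15*, *PLK2* and *TP53INP1* lie to the right and below, *AEN* and *TRIAP1* to the left and below, and *SFN* is the only gene above the upper line.

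The baseline difference between the lines was read from the empty vector arrays, PC-3 minus 22Rv1, which share their arrays with the knockdown ratios above. As deposited, PC-3 cells had 10 of the 31 targets lower by 2-fold or more and 7 higher (32.3% and 22.6%), where 5.96% and 55.1% of all genes were. After quantile normalization 20 were lower and 2 higher (64.5% and 6.45%), where 21.5% and 19.6% of all genes were. The median log2 ratio of the targets was -0.49 as deposited and -1.86 after quantile normalization, beside 1.15 and -0.07 for all genes.

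The shTNFRSF13B arrays give the same comparison of lines without the 22Rv1 empty vector array, and there the scale made little difference. On these, PC-3 cells had 10 targets lower by 2-fold or more and 4 higher (32.3% and 12.9%), the same number on each scale. As deposited 16.4% of all genes were lower and 17.0% higher, and after quantile normalization 16.5% were lower and 16.5% higher. The median log2 ratio of the targets was -0.68 as deposited and -0.57 after quantile normalization, beside -0.03 and -0.02 for all genes.

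*MDM2*, *SESN1*, *TP53INP1*, *PERP*, *EDA2R* and *TP53I11* passed 2-fold with both constructs and on both scales, lower in PC-3 than in 22Rv1 cells. *MDM2* stood at 9.70 and 9.35 on the PC-3 arrays and at 12.33 and 12.17 on the 22Rv1 arrays, with log2 ratios for empty vector and shTNFRSF13B of -2.63 and -2.83 as deposited and -4.11 and -2.96 on the quantile scale. The levels of the lines did not overlap. *EDA2R* had the largest difference, at 3.29 and 2.20 in PC-3 cells, where it was dim, against 8.27 and 7.79 in 22Rv1 cells (-4.99 and -5.59, quantile -6.50 and -5.18). *TP53I11* stood at 7.63 and 7.70 against 10.12 and 10.52 (-2.49 and -2.82, quantile -4.18 and -2.92), and *PERP* at 11.66 and 11.25 against 13.03 and 13.61 (-1.37 and -2.36, quantile -2.68 and -2.40). *SESN1* stood at 5.35 and 5.90 against 6.61 and 7.79 (-1.26 and -1.89, quantile -2.90 and -1.84). Its PC-3 empty vector value was near the olfactory receptor percentile of that array, 4.92. *TP53INP1* stood at 6.24 and 8.33 against 9.09 and 9.40 (-2.85 and -1.07, quantile -4.48 and -1.17). Each of these 6 genes was thus lower on either PC-3 array than on either 22Rv1 array, which largely follows from the rule that picked them. The share of all genes that passed this rule was not counted. It is at most the 5.96% that were lower on the empty vector arrays as deposited.

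*PLK2* and *TP53I3* were higher in PC-3 cells with both constructs and on both scales. *PLK2* stood at 12.30 and 13.51 in PC-3 cells and at 8.50 and 7.41 in 22Rv1 cells, log2 ratios of 3.80 and 6.10 as deposited and of 1.96 and 6.27 on the quantile scale, so that the empty vector difference was 13.9-fold or 3.90-fold. *TP53I3* stood at 9.39 and 9.18 against 5.60 and 6.49, ratios of 3.79 and 2.69 as deposited and of 1.995 and 2.59 on the quantile scale. These targets were thus expressed at higher levels in the line that lacks p53.

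Other differences between the lines changed with the construct. *GDF15* was lower in PC-3 than in 22Rv1 cells with the empty vector, at -5.73 (quantile -6.95), and higher with shTNFRSF13B, at 2.40 (quantile 2.35). *GADD45A* had 1.18 as deposited and -0.51 after quantile normalization on the empty vector arrays, against 2.90 and 2.88 on the shTNFRSF13B arrays. *SERTAD1* and *IER5* were lower in PC-3 cells only on the empty vector arrays (-1.71 and -1.45 as deposited and -3.37 and -3.17 on the quantile scale, against 0.33 and 0.75 with shTNFRSF13B). *SFN*, *TRIAP1*, *AEN* and *KITLG* were lower on both scales only on the shTNFRSF13B arrays, at -3.37, -1.42, -1.01 and -1.33 as deposited.

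**Figure D4:**
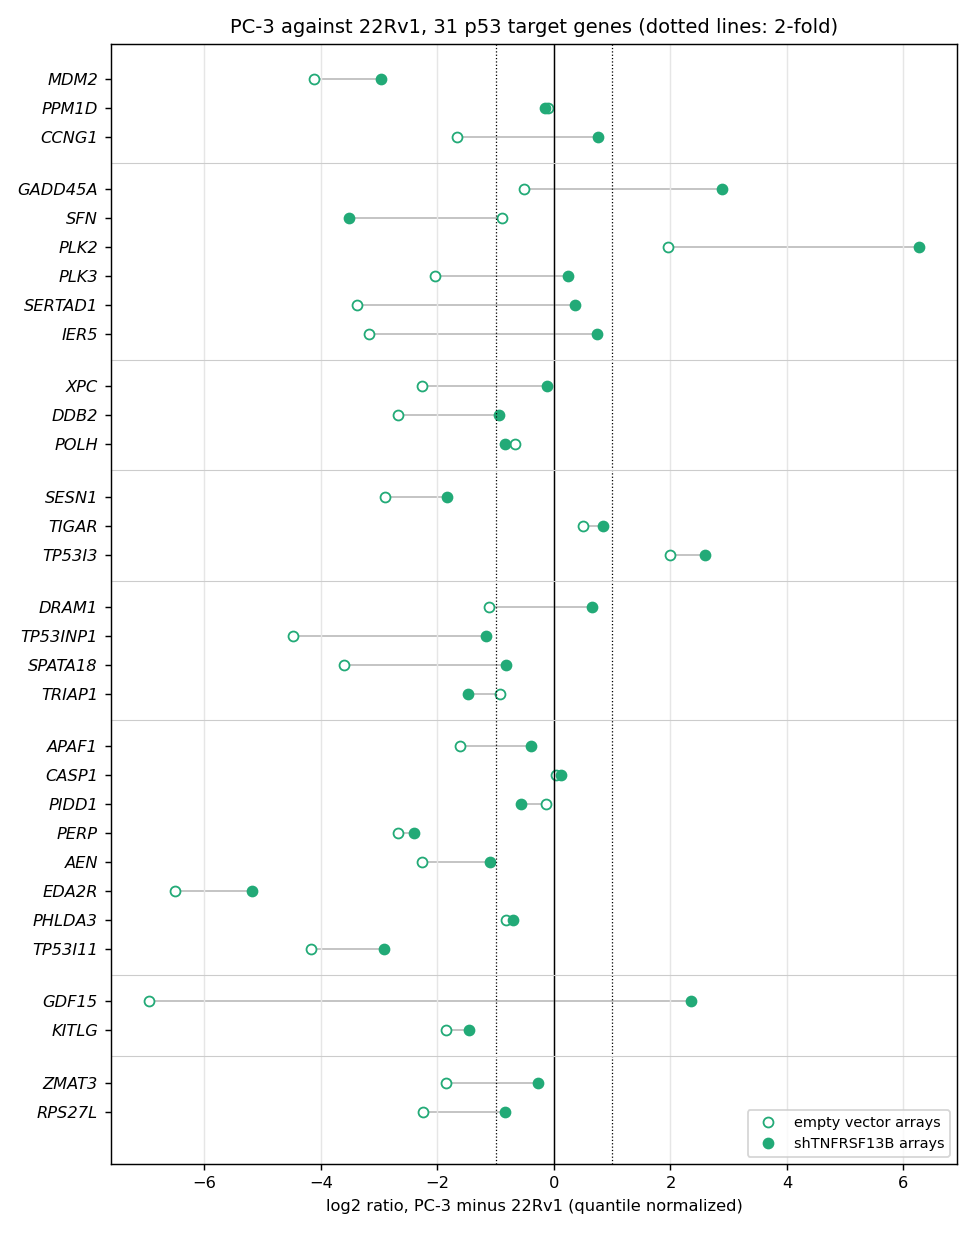
Log2 ratio of PC-3 to 22Rv1 cells for the 31 p53 target genes after quantile normalization, on the empty vector arrays (open circles) and the shTNFRSF13B arrays (filled circles), with dotted lines at 2-fold. *MDM2*, *SESN1*, *TP53INP1*, *PERP*, *AEN*, *EDA2R*, *TP53I11* and *KITLG* lie left of the lower line with both constructs, whereas *GDF15* crosses from -6.95 to 2.35.

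The 6 measured genes with a p53 element in the printed windows went in no one direction with shTNFRSF13B in PC-3 cells, where *AEN* was lower, *GDF15* higher and the other 4 under 2-fold. In 22Rv1 cells their median log2 ratio was -0.34 as deposited and -1.88 on the quantile scale, where 5 of the 6 were at least 2-fold lower. The 21 measured genes with a promoter entry and no such element had medians of 0.58 and -1.15. After quantile normalization 12 of these 21 were lower, where 15.5% of all genes were. In the empty vector comparison all 6 were lower in PC-3 cells by 2-fold or more after quantile normalization (from -2.25 for *RPS27L* to -6.95 for *GDF15*). So were 13 of the 21 and 21.5% of all genes. As deposited 3 of the 6 were lower, 6 of the 21 and 5.96% of all genes. The shTNFRSF13B arrays give this comparison of lines without the 22Rv1 empty vector array. There, on each scale, PC-3 values of 3 of the 6 fell at least 2-fold below those of 22Rv1. That of *GDF15* lay at least 2-fold above. Of the 21, 6 fell below and 2 lay above on each scale. The share of all genes below was 16.4% as deposited and 16.5% on the quantile scale. The mismatch limit that defines the 6 was set with the matches in view, and a link of the element with expression was not tested.

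Of 35 further p53 pathway genes, 31 were measured. In 22Rv1 cells as deposited 21 were at least 2-fold higher and 1 lower (67.7% and 3.23%, median 1.55), where 58.3% and 2.01% of all genes were (median 1.22). On the quantile scale 6 were higher and 6 lower (19.4% each, median -0.08), where 13.3% and 15.5% of all genes were. In PC-3 cells as deposited 3 were higher and 2 lower (9.68% and 6.45%, median -0.10), where 5.76% and 4.69% of all genes were. *CDKN1A*, which encodes the cell cycle inhibitor p21, was the 1 lower on both scales in 22Rv1 cells (-2.53 and -3.81). Its levels for empty vector and shTNFRSF13B were 5.48 and 5.16 in PC-3 cells against 12.69 and 10.16 in 22Rv1 cells. The PC-3 levels of *CDKN1A* were near the olfactory receptor percentiles of the PC-3 arrays, 4.92 and 4.98. Those higher on both scales in 22Rv1 cells were the death gene *PMAIP1* (3.67 as deposited and 2.18 on the quantile scale), the damage kinases *ATM* (3.89 and 2.17), *CHEK1* (2.68 and 1.05) and *CHEK2* (2.78 and 1.14), the growth factor binding protein *IGFBP3* (3.43 and 2.08) and *GTSE1* (3.49 and 1.86), which moves p53 out of the nucleus. In PC-3 cells the death receptor *FAS* (1.31), the matrix protein *THBS1* (1.27) and *CCNG2* (1.66) were higher and *SESN2* and *GTSE1* (-2.56) lower on both scales.

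Paralogues did not follow the members one for one. Of 29 measured, 16 passed 2-fold upwards and 4 downwards in 22Rv1 cells as deposited, which became 4 and 6 on the quantile scale. These shares, 55.2% and 13.8% as deposited and 13.8% and 20.7% on the quantile scale, compare with 58.3%, 2.01%, 13.3% and 15.5% of all genes. *GADD45B* had a log2 ratio of 1.15 in PC-3 cells and, on the 2 scales, -0.33 and -2.04 in 22Rv1 cells, where *GADD45A* was lower on both. *PHLDA1*, in contrast to *PHLDA3*, was lower in 22Rv1 cells on both scales (11.08 and 7.57, -3.51 as deposited and -5.10 on the quantile scale), as was *TP53INP2* (6.46 and 4.25, -2.21 and -3.86), which was dim with shTNFRSF13B. The mitotic kinases *PLK1* and *PLK4* had deposited ratios of -2.18 and -1.88 in the PC-3 pair and of 3.04 and 3.30 in the 22Rv1 pair (1.65 and 1.55 on the quantile scale), opposite in sign to *PLK2* in each line. *SERTAD3* (2.74 and 1.20) and *IER5L* (2.68 and 1.503), the latter dim with the empty vector, were higher on both scales in 22Rv1 cells, where *SERTAD1* and *IER5* were lower. *MDM4*, the partner of MDM2, had 2.58 as deposited and 0.97 after quantile normalization in 22Rv1 cells.

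Genes that p53 is known to lower through p21 and the DREAM repressor complex moved as a block. Of 20 such genes, among them *CCNB1*, *CDK1* and *MKI67*, all 20 were at least 2-fold lower with shTNFRSF13B in PC-3 cells as deposited (median -1.91). There 4.69% of all genes were lower. In 22Rv1 cells all 20 were higher as deposited (median 3.22), where 58.3% of all genes were (median 1.22). After quantile normalization 17 were higher (median 1.71), where 13.3% of all genes were (median -0.06). The list was chosen with earlier results of these data known, so its counts are a description. These are genes of dividing cells, and the part of proliferation in the values of the p53 targets was not tested.

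**Figure D5:**
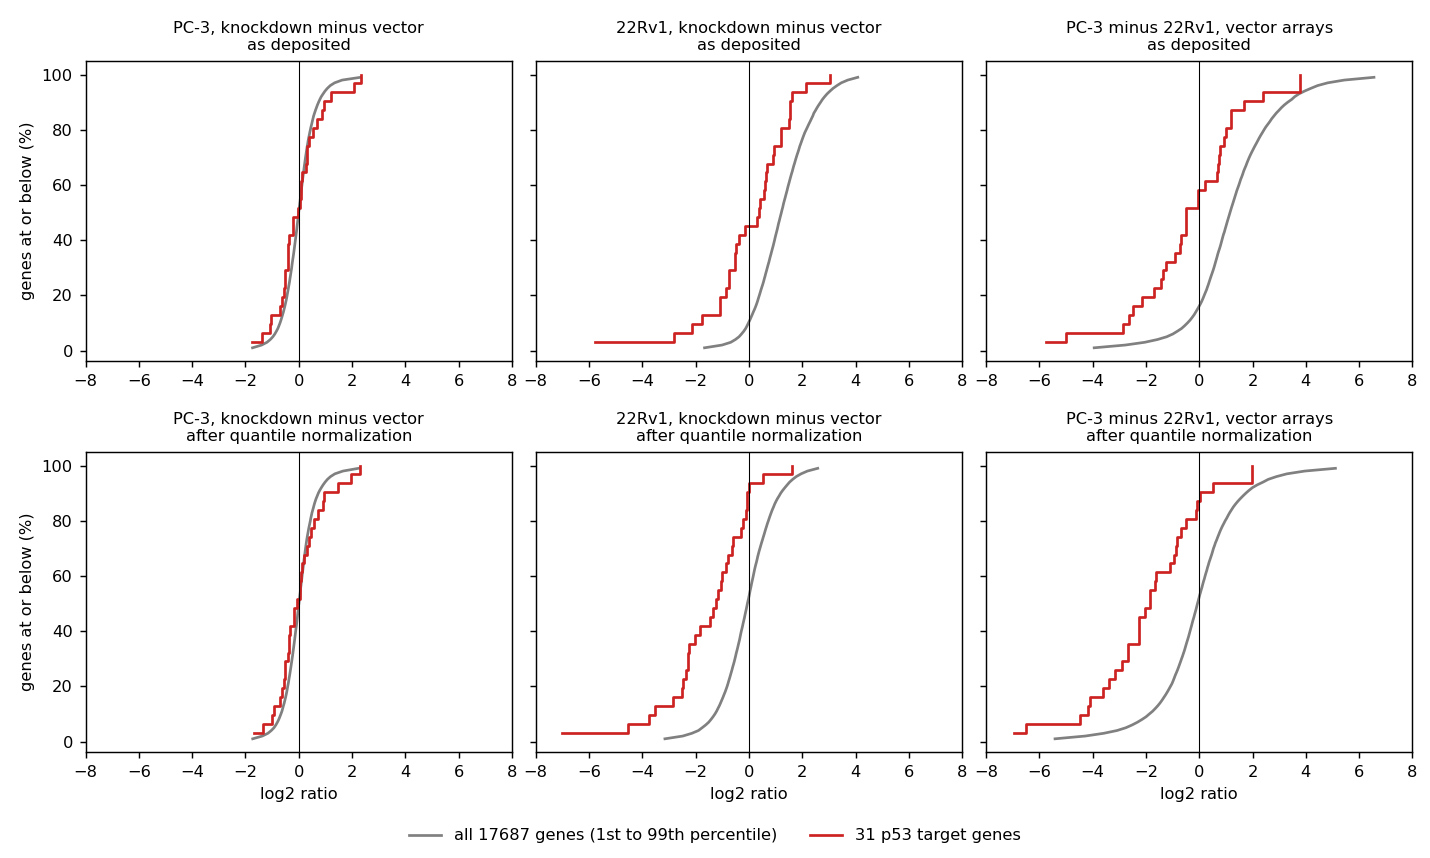
Share of genes (%) at or below each log2 ratio for the 31 p53 target genes (red steps) and all 17687 genes (grey), as deposited (top) and after quantile normalization (bottom), for the knockdown in PC-3 cells, the knockdown in 22Rv1 cells and PC-3 minus 22Rv1 on the empty vector arrays. The curves nearly coincide in PC-3 cells, with medians of -0.03 and -0.0019 as deposited, and the red steps lie left of the grey curve in both comparisons that use the 22Rv1 empty vector array.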

How the data were processed

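Total RNA of 4 samples, 1 per condition, was labelled with biotin and hybridised to Affymetrix arrays. The authors deposited 1 log2 value per probe set and array, 24351 in all. The platform is named in the methods as Clariom D and the software as Transcriptome Analysis Console and Expression Console. RMA and Partek appear beside Expression Console in the submitters' processing notes. Versions and genome build were not given in the sources used here. Deposited columns do not share one distribution, which affects every ratio with the 22Rv1 empty vector array.

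By probe set identifier, the annotation of the GEO platform record given with these data named 1 gene for 17709 probe sets, all matched by gene number to RefSeq (GRCh38.p14). Whether that record is the Clariom D array of the methods was not settled, which bears on gene names and on the 3 members without a probe set. The brightest probe set by mean over the 4 arrays stood for a gene, leaving 17687 genes. Log2 ratios were differences between single arrays, and 2-fold, the criterion of the study, counted as a call. The number of arrays limits the precision. Quantile normalization, median centring, loess on level (span 0.4, statsmodels 0.14.6), the mean of probe sets, thresholds of 1.5-fold and 3-fold and leaving out dim members were tried. The code was checked on simulated arrays. All members were named. Genes of the other lists were named only where past 2-fold on both scales or as paralogues, and not all of those were. Members and lists were chosen with earlier results of these data known. Transcripts of p53 were not analysed here.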

Additional observations from a re-analysis of the deposited data

Results flagged for a closer look

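Of the p53 target genes, *GDF15* and *PLK2* were past 2-fold in opposite directions in the 2 lines on both scales, upwards with shTNFRSF13B in the PC-3 pair and downwards in the 22Rv1 pair. The 22Rv1 log2 ratio minus the PC-3 log2 ratio was -8.13 for *GDF15* and -2.30 for *PLK2* as deposited. On the quantile scale the 22Rv1 and PC-3 ratios were -7.00 and 2.30 for *GDF15* and -2.85 and 1.46 for *PLK2*. Each line has 1 array per condition, so this difference between the lines was not tested.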

How the results depend on the processing

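The PC-3 result changed little with the scale. There 3 targets were higher under every normalization, 6 at 1.5-fold and 2 at 3-fold, and 4 were lower as deposited, 2 after quantile normalization and 1 at 3-fold. In 22Rv1 cells the counts of 8 higher and 6 lower became 1 and 19 after quantile normalization, 1 and 19 after median centring, and 1 and 18 after loess, and 13 were higher at 1.5-fold and 3 at 3-fold. The 22Rv1 median of 0.37 became -1.22, -1.26 and -1.18 in that order. For PC-3 minus 22Rv1 on the empty vector arrays, 7 higher and 10 lower became 2 and 20, 2 and 19, and 2 and 20, with medians of -1.86, -2.09 and -1.86 in place of -0.49. There 12 were higher at 1.5-fold, 4 at 3-fold and 4 on the shTNFRSF13B arrays. All members had 1 probe set, so the mean of probe sets changed none of these values, and leaving out dim members kept each count within 1.5-fold.

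Ratios past 2-fold that changed sign, after quantile normalization, median centring and loess, were in 22Rv1 cells those of *PPM1D* (-0.12, -0.11 and -0.10), *POLH* (-0.22, -0.0902 and -0.18), *SESN1* (-0.62, -0.45 and -0.55), *APAF1* (-0.29, -0.15 and -0.26) and *PHLDA3* (-0.0585, -0.0351 and -0.0244), and that of *PIDD1* after the first 2 (-0.0634 and -0.45). Between the lines they were those of *GADD45A* (-0.51, -0.42 and -0.31), *POLH* (-0.67, -0.40 and -0.61) and *PIDD1* (-0.13, -0.58 and -0.0444), and *PPM1D* after quantile normalization (-0.10) and loess (-0.0293). Why the 22Rv1 empty vector array differs was not tested. No paired analysis was possible because no line has replicate numbers, and a fit over both lines with the line as a block, for a shift common to them, was not run. The dimmest members, *CASP1* and *PIDD1*, are limited by signal near background on all 4 arrays.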
